A study of Zea mays with 4 samples.

Results

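The maize root tip libraries hold 156 candidate miRNAs that are listed in a single library, of 255 candidates and 576 entries in all. A candidate miRNA here is an entry that the authors' table numbers in place of giving it a name of the zma- series used for annotated maize miRNAs. The 156 were selected on their RPM values, as every such entry with a value above 0 in exactly 1 of the 4 libraries, so their restriction to a library is the selection rule and not a result. Candidates are called below by the number the authors gave them.

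Root tips of 1 cm were taken from maize (Zea mays, cultivar Zhengdan 958) seedlings kept in Hoagland's solution, and small RNA was sequenced. Days after germination were 3 for the early primary root (PRY), 15 for the later one (PRO), 7 for the seminal root (SR) and 15 for the crown root (CR). All groups share this cultivar and medium, and the labels name no allele or agent for any of them. Each group had 1 library, so no value has a replicate check, age and root type cannot be told apart between most libraries, and no p-value is given.

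miRNAs are short RNAs cut by a Dicer-like enzyme from the stem of a folded precursor, and they guide an Argonaute protein to complementary transcripts. In plants, deeply conserved families are usually abundant and act mostly on transcripts of transcription factors. Lineage-specific miRNAs are known to be scarcer, often come from a single locus, and are harder to tell from other small RNAs. Candidates are typically proposed by a program that folds the genome sequence around a small RNA read. Which program and settings were used is not given in the sources used here, and the sequences, precursors, positions and targets of the candidates were not analysed here.

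The values are RPM, which scales the reads of an entry to 1000000 reads of the library. They were turned back into whole reads, since within a library all values were multiples of the same step. Library totals were nearly even, at 10721082 to 11572637 reads, so 1 read was worth 0.0864 to 0.0933 RPM. Which reads a total covers is not known, so even totals need not mean even depth for miRNAs. Because RNA was taken from whole tips, fewer cells that make a miRNA and less of it per cell cannot be told apart.

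The early primary root held the most members and the later primary root the fewest. There were 52 in PRY, 45 in CR, 34 in SR and 25 in PRO. They made up 40.0% of the 130 candidates listed in PRY, 37.8% of 119 in CR, 28.8% of 118 in SR and 28.4% of 88 in PRO. PRO was thus lowest both in members and in candidates listed at all. With entries of identical values counted once the numbers were 14 in PRY, 16 in CR, 15 in SR and 9 in PRO, so that PRY was no longer first. Such counting merges any candidates that share a low whole number of reads. Over all entries listed in at least 1 library, 37.5% were listed in exactly 1, against 61.2% of candidates and 13.0% of known miRNAs. Candidate values begin at 5 reads and known values at 1, so these 3 shares are not on like terms. By library, entries listed there alone made up 17.9% of all 324 entries in PRY and 18.1% of 332 in CR. They made up 10.9% of 320 in SR and 11.5% of 305 in PRO, so on this share CR was highest and SR lowest. Nothing is read from these shares about the members, since the rule fixed them.

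**Figure D1:**
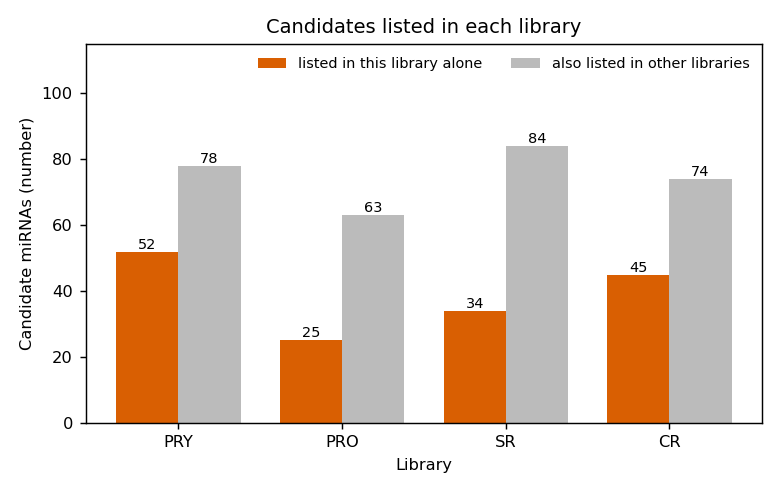
Number of candidate miRNAs listed in each library, 1 library per group. Orange bars are candidates with a value above 0 in that library alone and grey bars are candidates also listed elsewhere. PRY has the most orange (52) and PRO the fewest (25), while grey is highest in SR (84).

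Nearly all members were scarce. Their values ran from 5 to 363 reads with a median of 8, or 0.432 to 33.2 RPM with a median of 0.739. Of the 156, 95 (60.9%) had under 10 reads, 51 had 10 to 19, 6 had 20 to 49 and 4 had 50 or more. Under 1 RPM lay 118 of them. The 156 members together had 1995 reads, which is 3.48% of the 57341 reads of all candidates. The lower edge was crowded, with 17 members at 5 reads and 27 at 6.

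That lower edge was shared by every candidate in the table. None of the 455 candidate values above 0 was at 1 to 4 reads, and 29 were at exactly 5. Known miRNAs had no such edge: 205 of their 826 values above 0 lay at 1 to 4 reads, 99 of them at 1 read. The lowest candidate value was 5 reads in each of the 4 libraries, while the lowest known value was 1 read in each. A 0 beside a candidate may therefore stand for any number from 0 to 4 reads, and whether other conditions for listing were applied in each library is not given in the sources used here. For this reason a member is described as listed at 0 in the other libraries, and no fold and no upper limit is given.

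**Figure D2:**
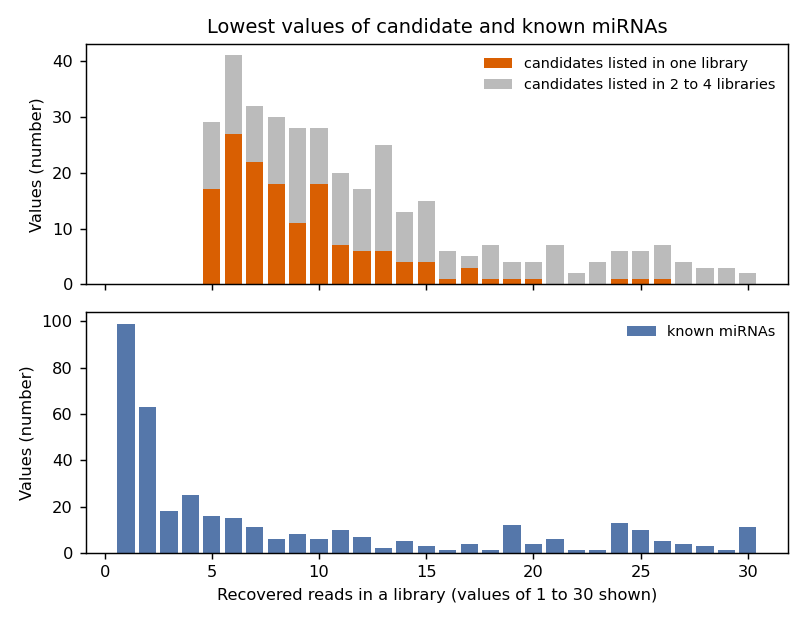
Number of values at each whole number of recovered reads from 1 to 30, over the 4 libraries. The upper panel stacks candidates listed in one library (orange) on other candidates (grey), and the lower panel shows known miRNAs. Candidates begin at 5 reads, and known miRNAs pile up at 1 read with 99 values.

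The few members with a high level were spread unevenly. Candidate 251 had 363 reads in CR and was listed at 0 in PRY, PRO and SR. Its 33.2 RPM (95% exact Poisson interval 29.9 to 36.8, counting error only) was the highest level of any member, and it was the single member at 10 or more RPM. Candidate 252, which follows it in the authors' numbering, came next with 85 reads or 7.78 RPM (6.22 to 9.62) in CR and was listed at 0 in the other libraries. Both stood clear of the remaining CR members, whose highest, candidate 235, had 34 reads or 3.11 RPM (2.16 to 4.35). Candidate 213 had 32 reads and candidate 220 had 24 in CR, and both were listed at 0 elsewhere.

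In PRY, candidate 54 stood alone at 62 reads or 5.78 RPM (4.43 to 7.41). The next members there were candidate 24 with 20 reads, candidate 113 with 19 and candidate 78 with 17. Their intervals overlap, from 1.14 to 2.88 RPM for candidate 24 and from 0.924 to 2.54 RPM for candidate 78, so their order is not settled at this depth. All 4 were listed at 0 in PRO, SR and CR.

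In SR, candidate 189 led with 53 reads or 4.58 RPM (3.43 to 5.99). Candidate 173 with 26 reads, candidate 197 with 25, candidate 202 with 18 and candidate 199 with 17 followed, all of them listed at 0 in PRY, PRO and CR. The leading SR member lay near the leading PRY member, and their intervals overlap. Candidate 173 stood at 2.25 RPM (1.47 to 3.29), below the interval of the leader.

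PRO had no such leader. Its highest member was candidate 149 with 15 reads or 1.36 RPM (0.759 to 2.24), followed by candidate 145 with 13 reads, candidates 160 and 168 with 12 each, and candidate 163 with 11. These 5 were listed at 0 in PRY, SR and CR, and their intervals overlap throughout. No PRO member reached 20 reads, while 2 in PRY, 5 in CR and 3 in SR did.

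**Figure D3:**
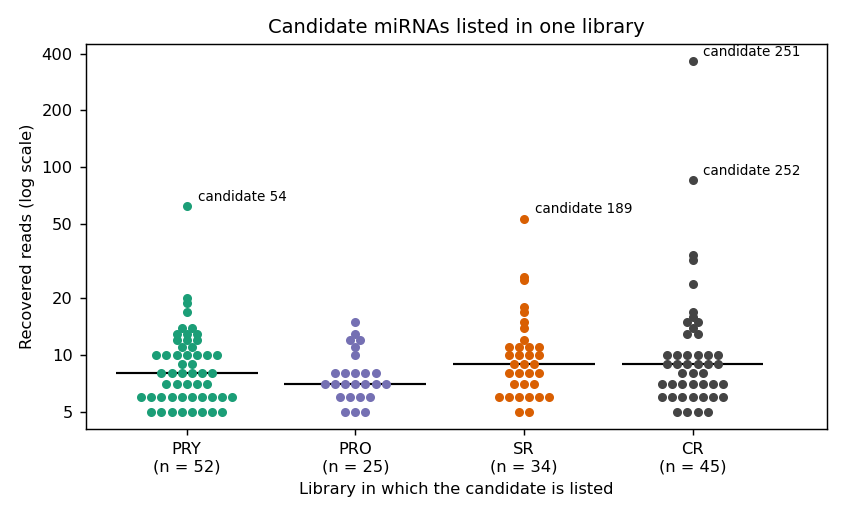
Recovered reads (log scale) of each member in the library that lists it, 1 point per candidate, with the median of each library as a black line. Members with 50 or more reads carry the authors' number. Medians lie at 7 to 9 reads, and candidates 251, 252, 54 and 189 stand above the rest.

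Medians were close across the libraries. They were 8 reads in PRY, 9 in CR, 9 in SR and 7 in PRO, and the quartiles of the members were 6 and 11 reads in PRY, 7 and 13 in CR, 7 and 11 in SR, and 6 and 8 in PRO. Under 10 reads lay 31 of 52 members in PRY, 27 of 45 in CR, 18 of 34 in SR and 19 of 25 in PRO. Members at 10 or more reads numbered 21 in PRY, 18 in CR, 16 in SR and 6 in PRO. Of all 319 entries that had 10 or more reads in some library, 61 were listed in one library alone, a share of 19.1%. All 61 are members, since no known miRNA listed in one library had more than 4 reads. Known values begin at 1 read and candidate values at 5, so known miRNAs and candidates met this count on unlike terms.

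Summed reads put CR first, and the size of its lead rested on candidate 251. The members summed to 890 reads in CR, 514 in PRY, 390 in SR and 201 in PRO. On the RPM scale these sums were 47.9 (43.9 to 52.3) in PRY, 81.5 (76.2 to 87.0) in CR, 33.7 (30.4 to 37.2) in SR and 18.2 (15.8 to 20.9) in PRO. Candidate 251 held 40.8% of the CR sum, while the leading member held 12.1% in PRY, 7.46% in PRO and 13.6% in SR. Without the leader of each library the sums were 48.3 RPM in CR (44.2 to 52.6), 42.2 in PRY (38.4 to 46.2), 29.1 in SR (26.1 to 32.4) and 16.8 in PRO (14.5 to 19.4). The intervals of CR and PRY then overlap, and PRO stays lowest. Of all candidate reads in a library, members held 5.40% in PRY, 5.36% in CR, 3.16% in SR and 1.06% in PRO. With the leader of each library left out of the sum, these shares were 4.75% in PRY, 3.18% in CR, 2.73% in SR and 0.985% in PRO. The highest candidate of each library, itself listed in all libraries, held much of the total. It had 3063 of 9517 candidate reads in PRY, 12249 of 16597 in CR, 7738 of 12349 in SR and 15091 of 18878 in PRO.

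At a minimum of 10 RPM, candidate 251 also passed a size rule of log2(RPM + 1) at least 1 above the highest of the other 3 libraries, in CR. Its passing restates the selection, because any member at that level stands beside listings at 0, and nothing is read from it. Over the whole table the rule passed 1 of 84 entries in CR (1.19%), 13.8% of 94 in PRY, 0 of 86 in SR and 7.45% of 94 in PRO. With the total over distinct miRNA entries as the scale it passed 9 entries in CR, 0 in PRY, 1 in SR and 0 in PRO, so these background shares depend on the scaling.

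Members lay at lower levels than candidates listed more widely, as a description without a test. The highest value of a candidate had a median of 8 reads for members, 12.5 for the 36 candidates listed in 2 libraries, 15 for the 25 listed in 3, and 49.5 for the 38 listed in all 4. At 20 or more reads in some library were 6.41% of members, 33.3% of those in 2 libraries, 48.0% of those in 3 and 86.8% of those in all 4. Reads were divided the other way from entries: the 38 candidates listed everywhere held 91.4% of candidate reads. A candidate listed in more libraries has more chances at a high value and has to pass the lower edge more often, so level and number of libraries are not independent measures here. Within single libraries members had lower medians than the others. The rule used these same values, so nothing further is read from that. Members had a median of 8 reads in PRY, against 21 for other candidates listed there. Medians were 9 against 16 in CR, 9 against 17.5 in SR and 7 against 18 in PRO.

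**Figure D4:**
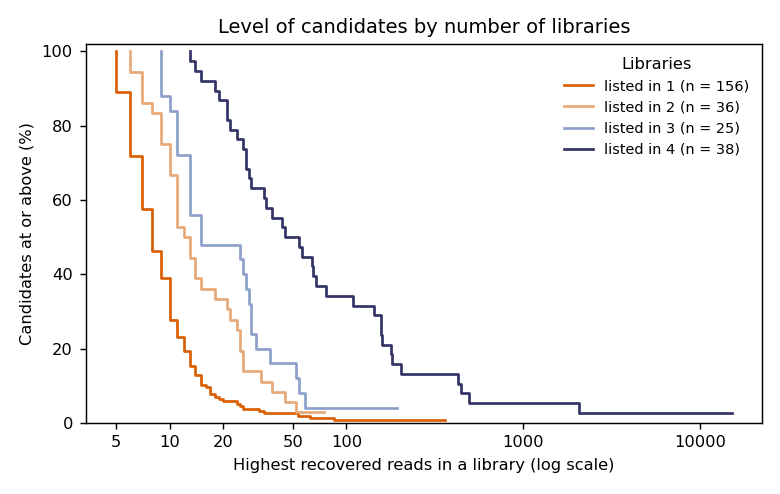
Share of candidates (%) whose highest value in any library is at or above the reads on the x axis (log scale), by the number of libraries that list them. The curve for one library (n = 156) has a median of 8 reads against 49.5 for candidates listed in all 4. It lies to the left of the others at low levels, while candidates 251 and 252 carry it past the curve for 2 libraries, which ends at 75 reads.

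Just inside the rule lay 17 members at 5 reads, and just outside it lay candidates whose second library was at the lower edge. Of the 36 candidates listed in 2 libraries, none had a second value of 1 read and 6 had one of 5 reads. Candidate 45, for example, had 10 reads in PRY and 5 in PRO, and candidate 108 had 7 in CR and 5 in PRY. These values overlap those of many members, 95 of which had 5 to 9 reads. The pair of libraries shared most often by candidates listed in 2 was PRY and SR, with 14, and the least shared pair was PRY and PRO, with 1. These pair counts leave out wider listings. PRY and PRO also shared the 38 candidates listed in all 4 libraries, 7 listed with SR and 4 listed with CR. PRO listed the fewest candidates of any library, 88.

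Candidates that missed a single library show how a listing at 0 can stand beside higher values. Candidate 133 had 0 reads listed in PRY, with 193 in CR, 166 in SR and 180 in PRO. Candidate 18 had 43 reads in PRY, 54 in PRO and 43 in SR, and was listed at 0 in CR. In 6 of the 25 candidates listed in 3 libraries, each listed value was at 20 or more reads.

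Raising the minimum for a listing changed the numbers and, in part, the order of the libraries. This scan was added after seeing the values. With 6 or more reads needed, 47 candidates reached it in PRY alone, 43 in CR, 33 in SR and 22 in PRO. With 8 or more the numbers were 35 in PRY, 27 in CR, 28 in SR and 12 in PRO, so that SR and CR were nearly level. With 10 or more they were 29 in PRY, 18 in CR, 25 in SR and 6 in PRO, and SR stood above CR. PRO was lowest and PRY highest at each of these minima, while at 11 reads SR was highest with 23, followed by PRY with 19. At 10 reads the set held 78 candidates, of which 61 were members and 17 were listed in further libraries at lower values, and it made up 52.7% of the 148 candidates that reached the minimum.

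**Figure D5:**
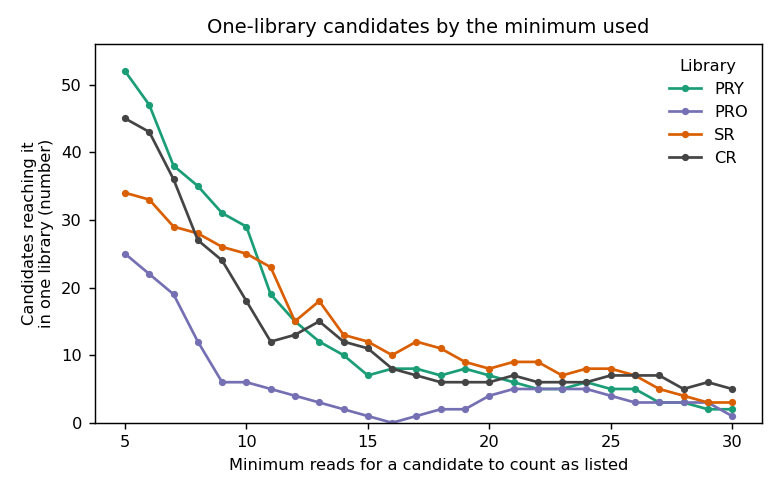
Number of candidates that reach a minimum number of reads (x axis, 5 to 30 reads) in one library and in no other, by library. At 5 reads the order is PRY (52), CR (45), SR (34) and PRO (25), and SR passes CR at 8 reads.

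The authors' numbers followed the libraries. The rule did not use the numbers, but the blocks below rest on the same values above 0 that it used. Candidates listed in PRY carry the numbers 1 to 130 without a gap. Those listed in PRO and not in PRY carry 131 to 168, those first listed in SR carry 169 to 210, and those listed in CR alone carry 211 to 255. Members made up 40.0% of the first block, 65.8% of the second and 81.0% of the third. The last block consists of members by construction, since a candidate listed in CR and in an earlier library falls into an earlier block. The first block has the lowest share for a like reason, as it also takes in candidates shared with any later library. Each later block can share candidates with fewer libraries, so nothing about the members is read from the rise of these shares.

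Known miRNAs listed in one library form a smaller set. There were 32 of them among 246 known miRNAs listed at all, with 6 in PRY, 15 in CR, 1 in SR and 10 in PRO. Of the 32, 28 had a single read. The highest were miR399g-3p with 4 reads in PRO, of a family that targets the phosphate regulator PHO2, and miR395a-5p with 2 reads in PRO, of the sulfate family. miR160f-5p had 2 reads in SR and miR399c-5p had 2 in CR. None of the 32 reached the 5 reads at which candidate values begin. Known and candidate values have different lower edges, so the levels of these sets are not compared, and why they differ was not tested. With the same minimum of 5 reads for known miRNAs, added after seeing the values, 5 reached it in PRY alone, 9 in CR, 1 in SR and 7 in PRO. Of the 15 in CR, 14 had a single read, and 1 known miRNA was listed in CR alone when 2 reads were needed.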

How the data were processed

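Small RNA of 4 maize root tip libraries, 1 per group, was sequenced on a Solexa instrument, per the labels' protocols. The authors deposited 1 table of 576 miRNAs with values scaled to RPM (reads for every 1000000 of a library total), which the header calls TPM. Aligner, miRNA reference and prediction program: not given in the sources used here. Totals were recovered from the step between values, and 100% of values were whole numbers of reads to within 0.01. What a total covers is not known.

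Intervals are 95% exact Poisson intervals and cover counting error only, since amplified reads that carry no molecular identifiers are not independent. With 1 library per group no replicate test is possible, with edgeR or otherwise. A planned bound of folds against 3 reads was dropped, because candidate values begin at 5 reads. The size rule used log2(RPM + 1), a minimum of 10 RPM and a difference of 1, which is 2-fold on that scale, over all entries. Its other scalings were the total over distinct miRNA entries, edgeR 4.0.16 TMM factors and DESeq2 1.42.0 size factors in R 4.3.3. Named candidates were up to 5 with the highest value per library, without ties at the last place, and any at 10 or more RPM. Candidates 45, 108, 133 and 18 were chosen after their values were seen, since no candidate had a second value of 1 read, which the rule for those just outside the set asked for. Members, rules and lists were chosen with earlier results of these data known. The code was tested on simulated data. Recovery takes the lowest value in a library as 1 read, and the simulated data had such an entry in each library. That test therefore cannot check this assumption for the deposited values. Python 3.11.15, pandas 2.3.3, numpy 2.4.6, scipy 1.17.1 and matplotlib 3.10.9 were used.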

Additional observations from a re-analysis of the deposited data

How the results depend on the processing

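No paired analysis was possible because each group has 1 library, and leaving out a replicate was not possible for the same reason. Of 140 alternative values 94 lay within 1.5 times the reported one. That tally includes settings that could not move a value, such as a minimum of 2 or 3 reads for the members. It is therefore no measure of how firm the results are. Treating 1 or 2 reads as not listed changed no number of members, since candidate values begin at 5 reads, and scaling to the smallest library total kept each library's number within 1.5 times. Counting identical entries once left 14 members in PRY, 16 in CR, 15 in SR and 9 in PRO, so that CR and not PRY was highest, with 213 reads in PRY, 87 in PRO and 236 in SR, and 9 at 10 or more reads in PRY, 10 in SR and 11 in CR. That setting cannot tell copies from different candidates that share a low whole number of reads. Added after seeing the data, a minimum of 8 reads gave 12 candidates with 121 reads in PRO and 27 candidates in CR, and a minimum of 10 gave 29 in PRY, 6 with 73 reads in PRO and 18 in CR. Leaving out candidate 251 left 527 reads in CR. Members reaching 5 RPM were 1 in PRY and 2 in CR, and 2 in CR reached 10 RPM when scaled to the total over distinct miRNA entries. The share of candidate reads stands with the summed reads.

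Known miRNAs listed in one library became 1 in PRY, 1 in CR, 2 in SR and 4 in PRO when 2 reads were needed, and 1 in PRY and 8 in CR when 3 were needed. They became 9 in CR when 5 were needed, and 1 in PRY, 3 in PRO and 2 in CR with identical entries counted once. The numbers can rise because entries listed in several libraries then count in one. Entries past the size rule, 13 in PRY, 1 in CR, 0 in SR and 7 in PRO, became 31 in PRY, 14 in CR, 8 in SR and 18 in PRO with no filter, and 1 in PRO with a pseudocount of 10. Scaled to distinct entries they were 0 in PRY, 9 in CR, 1 in SR and 0 in PRO. TMM factors gave 2 in PRY, 0 in PRO and 2 in SR, and DESeq2 factors gave 1 in PRY, 0 in PRO and 1 in SR. The cause of these shifts was not tested. Depth limits the members at 5 to 9 reads, 95 of the 156, whose values cannot be ranked.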
